A study of Mus musculus with 28 samples.

Results

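The background of axon-TRAP (translating ribosome affinity purification) was measured in the superior colliculus (SC) of Cre-negative mice, in which no ribosome carries the hemagglutinin (HA) tag. These libraries make up 8 of the 24 for which FPKM, fragment counts scaled by transcript length and by the mapped fragments of a library, were deposited. They were chosen by their labels: 4 perinatal libraries, from E17.5 and P0.5, and 4 later libraries, from P7.5 and Adult, with 2 replicates at each stage. All mice were C57BL/6 offspring of a homozygous RiboTag female and a Pax6-alpha-Cre male, so the controls carry the RiboTag allele of Rpl22 in its unrecombined, untagged form. Cre-positive littermates, used here only for comparison, gave 8 SC libraries at the same stages. In them the retinal alpha enhancer of Pax6 drives Cre in progenitors of the peripheral retina, so among the cells and fibres of the SC only the axons of retinal ganglion cells hold tagged ribosomes. The SCs of several animals were pooled for each library, the post-mitochondrial lysate was bound to an HA antibody on Protein G beads, and the RNA was reverse transcribed and amplified by PCR. No source gives which animals or litters went into which replicate, so p-values measure only the spread between these libraries.

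A gene entered the comparison when it reached 1 FPKM in at least 3 of the 8 libraries, which 2263 of 23995 listed genes did. Of these, 2260 had a value in every library and were tested.

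The SC is a layered midbrain structure that receives the axons of retinal ganglion cells in its superficial layers. At the perinatal stages its neurons extend neurites and retinal axons elongate and branch. Later, synapses mature, and oligodendrocytes wrap axons in myelin. In an immunoprecipitation without a tagged target, RNA is recovered by binding to antibody, Protein G or beads, or by carry-over of lysate, and its amounts need not follow the makeup of the tissue.

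The targeted gene was listed above 0 in only 2 of the 8 libraries. Rpl22, which encodes ribosomal protein L22 (ENSMUSG00000028936), was listed at 7.84 FPKM in E17.5 replicate 1, at 0.909 in Adult replicate 1 and at 0 in the other 6 libraries, so it gave no check of the labels, and the tag itself cannot be seen in gene-level values. A value of 0 in these files is not a measure of absence, since Gapdh and Ppia, a glycolytic enzyme and a cyclophilin that nearly every cell makes, were listed at 0 in all 8 libraries.

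The libraries were uneven. The spacing of low FPKM values gave an estimated depth of 515861 fragments in E17.5 replicate 1 and 558085 in Adult replicate 1, against 2.25e+06 to 1.45e+07 in the other 6. For a transcript of 2 kb, 3 fragments corresponded to 3.19 FPKM in E17.5 replicate 1, to 2.95 in Adult replicate 1, to 0.731 in Adult replicate 2 and to between 0.114 and 0.243 in the remaining libraries. At 1 FPKM, 15.1% of the genes counted in E17.5 replicate 1 and 39.6% of those in Adult replicate 1 therefore rested on fewer than 3 estimated fragments. These floors reflect counting error alone, because fragments copied by PCR carry no molecular identifier and may derive from the same molecule. Values of 0 were most frequent in another library, Adult replicate 2. There 1428 of the 2260 tested genes (63.2%) were listed at 0, against 15.8% to 31.6% in the other libraries. The number of genes at 1 FPKM or more was 4003, 2190, 1586 and 1648 in the perinatal libraries (E17.5 replicates 1 and 2, P0.5 replicates 1 and 2) and 2285, 1606, 2604 and 723 in the later ones (P7.5 replicates 1 and 2, Adult replicates 1 and 2). The ranges overlapped and the difference of means did not pass (-552, exact two-sided permutation test over libraries, p = 0.571, adjusted p = 0.891 over 6 measures). The count of genes at 10 FPKM or more was lower in all 4 later libraries: 2389, 1220, 1223 and 1078 against 806, 1028, 1020 and 569. This difference of -622 genes had p = 0.0286 by the exact permutation test, the smallest that 4 against 4 allows, and an adjusted p of 0.171.

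Replicates of a stage differed widely in how alike they were. Over the 2260 genes, Pearson's r of log2(FPKM + 1) was 0.92 between the P0.5 replicates, 0.67 between those of P7.5, 0.49 between those of Adult and 0.24 between those of E17.5. These correlations are across genes, which are not independent replicates. Both E17.5 libraries stood apart. Replicate 1 had r of 0.32 and 0.46 with the P0.5 libraries, the latter its highest with any Cre-negative library. E17.5 replicate 2 had r of 0.40 with each P0.5 library, but 0.65 and 0.69 with the P7.5 libraries and 0.60 with Adult replicate 1. The nearest library of all to E17.5 replicate 2 was E17.5 Cre-positive replicate 2, with r = 0.83. For 7 of the 8 Cre-negative libraries the nearest Cre-positive library was that of the same stage and replicate number. The margin was small for E17.5 replicate 1 (0.594, against 0.593 with P0.5 Cre-positive replicate 2). It was also small for Adult replicate 2 (0.544, against 0.535 with P7.5 Cre-positive replicate 1). At the other extreme, P7.5 replicate 1 reached r = 0.90 with its Cre-positive counterpart. Adult replicate 1 was the exception, at 0.68 with both Adult replicate 1 and P7.5 replicate 2 of the Cre-positive libraries.

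**Figure D1:**
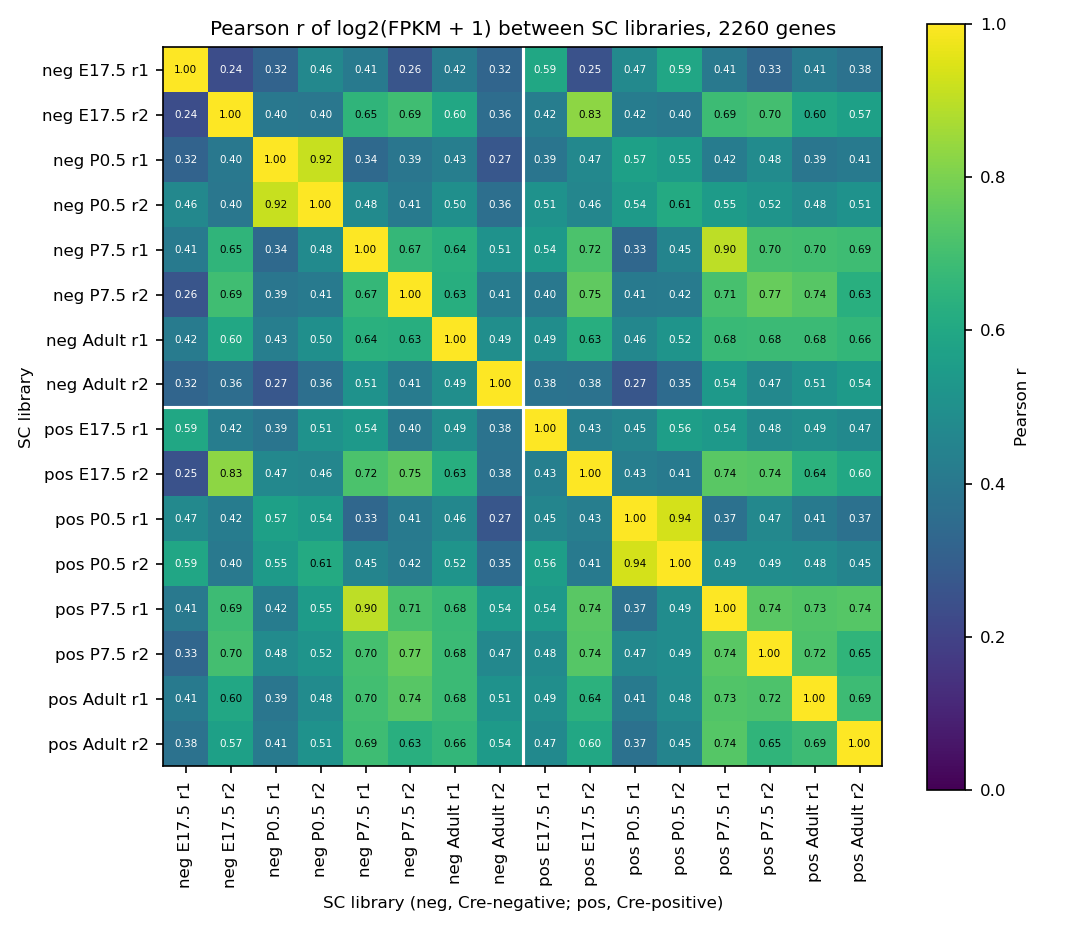
Pearson r of log2(FPKM + 1) over 2260 genes for each pair of the 8 Cre-negative (neg) and 8 Cre-positive (pos) SC libraries, with rows and columns in order of stage and replicate (r1, r2). The P0.5 Cre-negative pair reaches 0.92, the E17.5 pair 0.24, and P7.5 Cre-negative replicate 1 and its Cre-positive counterpart 0.90.

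A common set of genes made up most of each library. In all, 6457 genes reached 1 FPKM in at least 1 library, but 2954 of them did so in 1 library only and 309 in all 8. Those 309 genes held between 60.8% of the summed FPKM, in E17.5 replicate 1, and 82.6%, in P7.5 replicate 1. Of the 309 genes, 257 (83.2%) were also at 1 FPKM or more in all 8 Cre-positive SC libraries and 255 (82.5%) in all 8 retina libraries. Their transcripts were longer than those of the tested genes as a whole, with a median of 2689 against 2056 bases, and 17.2% of them held an internal run of at least 12 A, against 15.1% of the genes tested and 6.31% of the genes that reached 1 FPKM in no Cre-negative library. The share of a library taken by its top 10 genes was 28.5% to 44.4% perinatally and 35.3% to 39.7% later, and the difference did not pass (exact permutation p = 0.743, adjusted p = 0.891). Loci marked as holding too many reads have no value and enter neither these sums nor the library totals. They were Gnb1 and Hsf2 in E17.5 replicate 2, Actb and Hsf2 in P0.5 replicate 2 and Hsf2 in P7.5 replicate 1. The shares of these libraries, among them the 28.5% of E17.5 replicate 2, are therefore likely too low, for the top 10 and for the 309 genes.

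The 10 genes with the highest means encode proteins of varied roles. Gnb1, a G protein beta subunit, was listed at 3810, 35231 and 22718 FPKM in E17.5 replicate 1 and the P0.5 replicates and at 18986, 27079, 36690 and 64220 in the later libraries. It had no estimate in E17.5 replicate 2, where the file marks the locus as holding too many reads, and it was not tested. Actb, which encodes beta-actin, was at 110683, 23991 and 41974 FPKM in the 3 perinatal libraries with an estimate and at 15373, 7568, 20097 and 10587 in the later ones. Every perinatal value was above every later value, and the missing estimate of P0.5 replicate 2 kept the gene out of the fit. Hsf2, a heat shock transcription factor, had estimates in only 5 of the 8 libraries, from 4308 FPKM in Adult replicate 1 to 43648 in E17.5 replicate 1. The locus was marked as holding too many reads in the other 3.

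Of the remaining genes with the highest mean levels, Otub1, a deubiquitinase, ranged from 1529 to 27656 FPKM, Set, a histone chaperone and phosphatase inhibitor, from 1724 to 8017, and Ptges3, the co-chaperone p23, from 1497 to 10547. Usp22, a deubiquitinase of the SAGA complex, ranged from 490.4 to 12904 FPKM and Tubb5, a beta-tubulin, from 2149 to 15482. None of these 5 genes passed the test between the periods, and the smallest adjusted p among them was 0.296, for Tubb5. Impact and Dpysl2 complete the 10 genes with the highest means and are described with the comparison below.

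Markers of the labelled tissue were listed in part. Of 26 markers of SC and midbrain neurons, 5 were listed at 0 in every library, among them Pax7, Slc32a1 and Npy, and 8 reached the minimum for testing. As with Gapdh, a listed 0 does not show that the gene was absent. The transcription factor genes Pou4f1 and Rorb were the most abundant of them. Pou4f1 was at 66.5, 2060, 704.5 and 191.1 FPKM perinatally and at 190.5, 582.2, 594.6 and 0 later, and Rorb at 21.3, 207.2, 140.5 and 24.3 and then at 266.2, 312.9, 900.2 and 1979. All 4 later values of Rorb were above the perinatal ones, with a difference of 3.28 ± 1.17 (SE) and an adjusted p of 0.171. Rorb was the exception on this list, since 7 of the 8 tested markers had lower later means. By sign these are 87.5%, against 64.8% of all genes tested. The median difference of the list was -2.56, against -0.72 over all genes, and none of its members passed the test. Slc17a6, which encodes a vesicular glutamate transporter of midbrain neurons, did not exceed 1.46 FPKM in any library. Genes at 0 and Slc17a6, Syp and Syn1 are named here after their values were seen.

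Markers of other cells were uneven between libraries. Cnp, an enzyme of myelin-forming cells, was at 11.4 to 86.2 FPKM perinatally and at 44.5 to 3128 later, and so above 1 FPKM in all 8 libraries. Of 21 oligodendrocyte and myelin genes, 10 were at 0 in all 8 libraries, including Mag, Mog and Mobp. Mbp, the myelin basic protein, was listed at 1019 FPKM in Adult replicate 2, at 2.32 in E17.5 replicate 2, at 0.0522 in P7.5 replicate 2 and at 0 elsewhere. Of 14 microglial genes, 11 were at 0 in all libraries, and C1qa, a complement subunit, was listed at 168.2, 0, 77.0 and 43.2 FPKM perinatally and at 0 in all 4 later libraries. Adult replicate 1 was the only library with more than 3 of 23 photoreceptor and other retina markers at 1 FPKM or more. It had 15 of them, with a summed level of 227.3 FPKM, and 16 of 20 lens crystallin and related genes. The summed lens level there was 515.2 FPKM, against 0.468 to 84.6 in the other 7 libraries, and its part in the later values was not tested. Ttr, which encodes the thyroid hormone carrier transthyretin of the choroid plexus, was at 681.9 FPKM in E17.5 replicate 1 and at most 5.21 elsewhere. The summed level of 11 erythrocyte genes was 2489 FPKM in that library and 1318 in Adult replicate 2, against at most 165.1 in the other 6. In such bulk libraries, fewer cells of a type and less RNA per cell cannot be told apart.

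The comparison of periods asked how this background changes with development. Of 2260 genes, 3 were higher in the later libraries (0.133%) and 2 were lower (0.0885%) at an adjusted p of at most 0.05 (limma on log2(FPKM + 1), 4 libraries against 4, Benjamini-Hochberg). Pam, Impact and Snap25 rose, and Flywch2 and Gm1673 fell. Before adjustment, 53 genes (2.35%) were higher and 295 (13.1%) lower at p of 0.05, and the median difference over all genes was -0.72. With quantile normalization that median was 0.03 and the unadjusted counts were 103 higher and 153 lower. With 1 FPKM required in all 8 libraries, 31 of 306 genes were higher and 10 lower at the unadjusted p by limma. The excess of lower genes was thus smaller with quantile normalization and reversed under the stricter filter. It remained with median-ratio scaling (55 higher and 275 lower at the unadjusted p by limma) and with no filter (38 and 249). The filter used here admits genes that are high in only 1 period, and 759 genes reached 1 FPKM in all 4 perinatal libraries against 387 in all 4 later ones. The part of the filter in the excess was not tested.

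Pam encodes the enzyme that amidates neuropeptides (ENSMUSG00000026335, chr1:97795114-98095646 of mm10, minus strand). Its level was 183.8, 88.3, 3.13 and 52.2 FPKM in the perinatal libraries and 1435, 222.5, 1522 and 4331 in the later ones. The groups did not overlap, and the difference of mean log2(FPKM + 1) was 4.79 ± 1.13 (SE), adjusted p = 0.0333. Impact, a regulator of the kinase GCN2 and an imprinted gene (ENSMUSG00000024423, chr18:12955852-12992950, plus strand), was among the 10 most abundant genes. It was at 184.1, 3371, 2998 and 497.9 FPKM and then at 6642, 4573, 3743 and 23842. These groups did not overlap either, although the gap between the highest perinatal and the lowest later value was small (difference 2.88 ± 0.69, adjusted p = 0.0333). Snap25 encodes a SNARE protein of the synaptic vesicle fusion machinery (ENSMUSG00000027273, chr2:136713453-136782428, plus strand). It was at 332.0, 37.2, 0.152 and 0.390 FPKM perinatally and at 91.1, 85.3, 2187 and 7449 later, so that E17.5 replicate 1 lay above both P7.5 libraries. The difference was 5.65 ± 1.40, adjusted p = 0.0333.

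Flywch2, which encodes a FLYWCH zinc finger protein (ENSMUSG00000023911, chr17:23776916-23786081, minus strand), was at 228.5, 22.8, 348.5 and 149.2 FPKM in the perinatal libraries. It was at 0.293 in P7.5 replicate 1 and listed at 0 in the other 3 later libraries. The difference of -6.93 ± 1.72 (adjusted p = 0.0333) is on the scale with the pseudocount and is no fold, since most later values are 0. Gm1673, a predicted gene with a short transcript (ENSMUSG00000070858, chr5:33983433-33985013, plus strand), was at 1496, 9.85, 247.5 and 414.2 FPKM perinatally. Later it was at 15.1 in P7.5 replicate 2 and at 0 in the other 3 libraries, which put that library above E17.5 replicate 2 (difference -6.66 ± 1.70, adjusted p = 0.0424). The counting is not stated to use strand, and Flywch2 shares its locus with an annotated antisense gene, while annotated processed pseudogenes lie within the loci of Pam and Snap25.

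**Figure D2:**
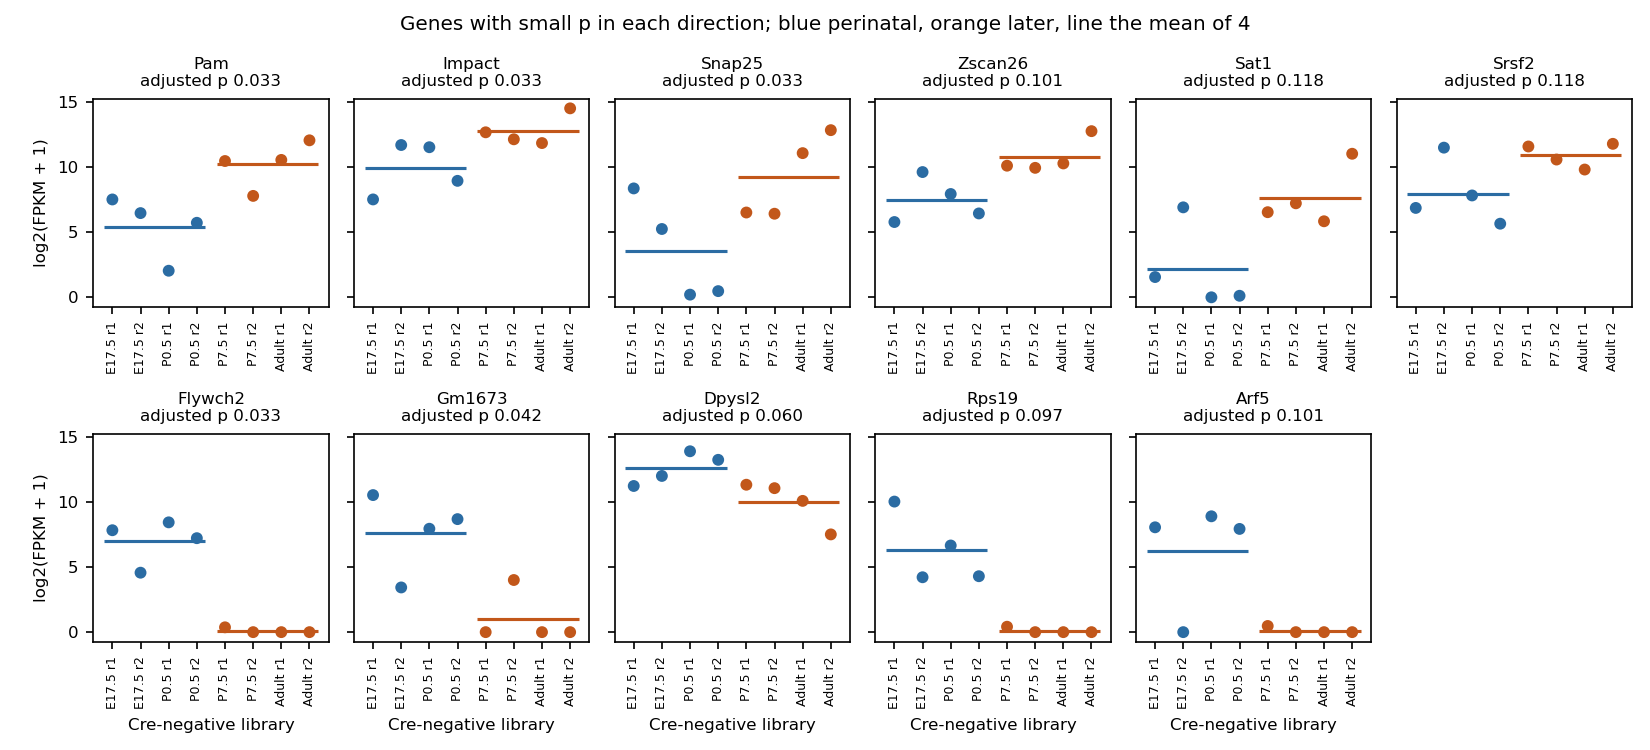
Level, as log2(FPKM + 1), of 6 genes with higher and 5 with lower later means, among those with the smallest p, in the 8 Cre-negative libraries, perinatal in blue and later in orange, with a line at the mean of 4 libraries. The upper row holds the genes with higher later means and the lower row those with lower ones. The adjusted p above each panel passes 0.05 for Pam, Impact, Snap25, Flywch2 and Gm1673.

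The genes next in order did not pass. Among those with higher later means, Zscan26, a zinc finger gene, was at 54.4, 796.2, 246.2 and 86.7 FPKM and then at 1118, 996.9, 1261 and 7062, without overlap (3.34 ± 0.95, adjusted p = 0.101). Sat1, the spermidine acetyltransferase, and Srsf2, a splicing factor, had differences of 5.52 ± 1.66 and 2.99 ± 0.91, each with an adjusted p of 0.118, and E17.5 replicate 2 overlapped the later range in both. Among those with lower later means, Dpysl2, which encodes the collapsin response mediator CRMP2 of growing axons, was at 2430, 4152, 15490 and 9810 FPKM and then at 2598, 2164, 1098 and 182.7. P7.5 replicate 1 lay above E17.5 replicate 1 (difference -2.60 ± 0.70, adjusted p = 0.0603). Rps19, a small-subunit ribosomal protein, and Arf5, a GTPase of vesicle traffic, had differences of -6.21 ± 1.73 and -6.11 ± 1.73 and adjusted p of 0.0973 and 0.101. Arf5 was at 0 in E17.5 replicate 2 and at 245.1 to 481.5 FPKM in the other 3 perinatal libraries.

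Beyond the test, the 4 later libraries lay above all perinatal ones for 25 genes (1.11%) and below all of them for 124 (5.49%). Of these, 2 and 1 passed the test.

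The calls were sensitive to single libraries. Leaving out E17.5 replicate 2, the perinatal library most like the later ones, gave 4 higher (0.177%) and 108 lower genes (4.78%). Its r with the P7.5 libraries was 0.65 and 0.69, so its removal leaves perinatal libraries that are less like the later ones. Leaving out any other single library gave between 0 and 2 higher and between 0 and 3 lower genes. No gene was called in either direction when P0.5 replicate 2, P7.5 replicate 1 or Adult replicate 1 was left out. Without both shallow libraries, a setting chosen after the data were seen, 0 were higher and 1 lower by limma, with 42 and 246 at an unadjusted p of 0.05. The P0.5 and P7.5 libraries alone, whose replicates were the most alike, gave 77 genes higher at P7.5 (3.41%) and 217 lower (9.6%), with Snap25 among the former and Flywch2 and Arf5 among the latter. Not all of the 77 were low throughout the perinatal libraries. Fabp5 was at 156.2 and 270.3 FPKM at E17.5, 0.382 and 0.110 at P0.5 and 299.8 and 193.0 at P7.5. Ica1 was at 2.04 FPKM or less in all 4 perinatal libraries and at 34.8 and 33.2 at P7.5. Both are named after their values were seen.

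**Figure D3:**
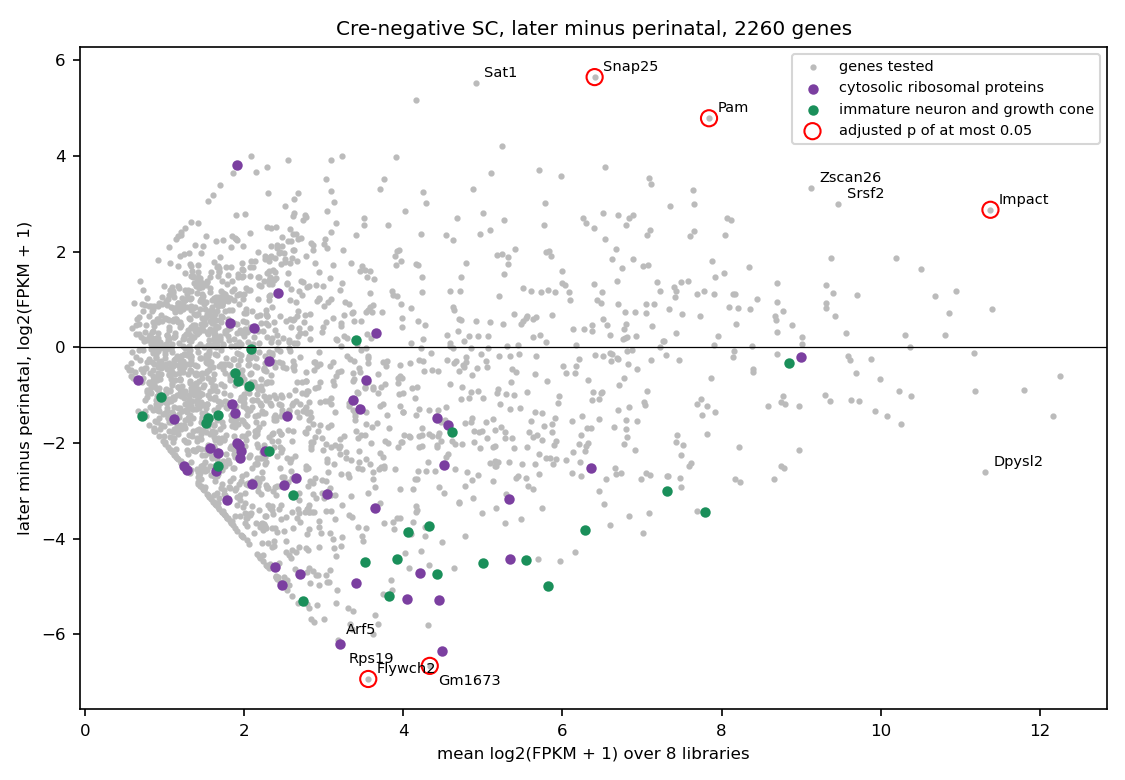
Difference between the later and perinatal means of log2(FPKM + 1) against the mean over the 8 Cre-negative libraries, 1 point for each of 2260 genes. Red rings mark the 5 genes at an adjusted p of at most 0.05. Genes of growth cones and ribosomal proteins lie mostly below 0.

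No gene of young neurons passed the test, although nearly all had lower later means. Of 29 genes of immature neurons and growth cones, 28 were tested and 27 had lower later means, with a median difference of -2.74 against -0.72 over all genes (-2.38 against 0.03 with quantile normalization). This list, like the others, was chosen with earlier results of these data known, so its shares are a description only. Over all genes tested, 64.8% had lower later means. At an unadjusted p of 0.05, 13 of the 28 were lower, where the background is 13.1%. Summed over the 29 genes, FPKM was 14232, 4661, 5111 and 2722 in the perinatal libraries and 904.5, 1561, 1048 and 576.3 in the later ones, without overlap. This was not particular to the list. The microglia sums did not overlap either (lowest perinatal 28.2, highest later 20.8 FPKM), nor did those of retinal ganglion cell markers (89.8 and 80.8). Nnat, an imprinted gene of developing neurons, was at 3583, 248.3, 645.7 and 487.0 FPKM and then at 65.0, 53.2, 25.6 and 208.2 (-3.45 ± 1.14, adjusted p = 0.157). Marcks, a substrate of protein kinase C, was the most abundant member, at 2743, 386.6, 169.8 and 397.6 FPKM against 529.7, 388.9, 488.3 and 280.2 (-0.34 ± 0.99, adjusted p = 0.907). Gap43, a growth cone protein that is also counted among the markers of retinal ganglion cells, was at 125.4, 0, 181.8 and 130.2 FPKM perinatally, at 0.258 in P7.5 replicate 1 and at 0 in the other 3 later libraries. Without E17.5 replicate 2 the list held 4 of 28 genes called lower, where 4.78% of all genes were, and at P7.5 against P0.5 it held 2 of 28, where 9.6% of all genes were.

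Components of the translation machinery had mostly lower later means without a call. Of 87 cytosolic ribosomal protein genes, 46 were tested, 41 had lower later means, and the median difference was -2.27 (-1.65 with quantile normalization). Of the 46, 89.1% thus had lower later means, against 64.8% of all genes. At an unadjusted p of 0.05, 14 (30.4%) were lower, against 13.1% of all genes, and 1, Rpl7, was higher. The list summed to 18013, 1231, 3592 and 2534 FPKM perinatally and to 470.0, 889.7, 1857 and 2032 later, so E17.5 replicate 2 lay within the later range. Rps3 was the most abundant member and had a difference of only -0.20 ± 0.97, with 244.6 to 823.5 FPKM perinatally and 204.7 to 826.2 later. Of 15 tested translation factor genes, 14 had lower later means (median -1.35) and 3 (20.0%) had an unadjusted p of at most 0.05. Eif4a1, the RNA helicase that unwinds mRNA leaders, was at 657.5, 16.2, 501.1 and 723.5 FPKM and then at 22.3, 28.5, 52.1 and 289.9 (adjusted p = 0.435). Genes of ribosomal proteins have many processed pseudogenes, and how reads were split between them is not stated.

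Nuclear genes of oxidative phosphorylation had lower later means in 23 of 32 tested members, with a median of -1.83. These shares, 71.9% by sign and 18.8% (6 genes) lower at an unadjusted p of 0.05, lay near those of all genes, 64.8% and 13.1%. Cox6a1, a cytochrome oxidase subunit, was at 779.9, 5.13, 349.9 and 240.1 FPKM and then at 0, 17.4, 163.7 and 836.3. Adult replicate 2 thus lay above every perinatal library, and P7.5 replicate 1 below every one. Proteasome and ubiquitin genes had lower later means in 13 of 16 tested members and chaperones in 7 of 9, with 4 of each below at the unadjusted p and none above. By sign these are 81.2% and 77.8%, against 64.8% of all genes.

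Genes of mature neurons were sparse and uneven. Snap25 passed the test, but of 28 presynaptic genes only 7 were tested, 5 with higher later means, and the median difference was 0.76. Cplx2, the SNARE regulator complexin, was at 90.7, 14.9, 7.94 and 79.1 FPKM and then at 245.4, 28.5, 221.7 and 876.8 (2.60 ± 1.42, adjusted p = 0.373). The summed level of the list was 850.4, 58.6, 148.3 and 157.9 perinatally and 408.1, 118.3, 2640 and 8354 later, and Snap25 made up most of it in the Adult libraries. Syp, which encodes the vesicle protein synaptophysin, did not exceed 3.10 FPKM in any library, and Syn1 was listed at 0 in all but Adult replicate 1. Of 14 tested receptors, channels and calcium signalling genes, 7 were higher and 7 lower by their means, with a median of -0.09 that was 0.68 with quantile normalization. Of 8 tested astrocyte genes, 5 had higher and 3 lower later means, with a median of 0.70, while the summed level of the list was 1058, 115.4, 2089 and 1102 FPKM perinatally and 361.0, 469.9, 982.4 and 301.5 later. The gap junction gene Gja1 was at 37.7, 113.4, 10.2 and 27.7 FPKM and then at 191.2, 379.1, 179.7 and 252.7, without overlap (2.80 ± 1.38, adjusted p = 0.322). Cst3, the protease inhibitor cystatin C, was at 332.5, 0, 491.5 and 246.2 FPKM and then at 44.6, 35.8, 123.8 and 0, the opposite direction (-1.90 ± 1.59, adjusted p = 0.613).

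The other lists held few tested genes. Of 12 tested neurofilament and microtubule-associated genes, 9 had lower later means, with a median of -0.80 that was 0.05 with quantile normalization. Map1b, which stabilizes microtubules in growing axons, was at 24.8, 482.9, 88.9 and 36.8 FPKM and then at 30.7, 100.4, 17.4 and 0 (-2.37 ± 1.63, adjusted p = 0.512). Of 16 tested genes of RNA binding and splicing, 7 were higher and 9 lower by their means, and the median of -0.48 was 0.16 with quantile normalization.

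Of 25 cell cycle and neural progenitor genes 6 were tested, with a median of -1.51. Fabp7, a fatty acid binding protein of radial glia, was at 222.9, 0.243, 296.9 and 233.6 FPKM and then at 8.65, 0.988, 18.9 and 0 (-3.91 ± 1.71, adjusted p = 0.300). E17.5 replicate 2 was the only perinatal library within the later range. Markers of retinal ganglion cells gave 3 tested genes, all with lower later means, and a median of -2.97. Ebf1, a transcription factor gene on that list, was at 7.72, 82.7, 167.6 and 27.6 FPKM and then at 4.69, 17.6, 7.81 and 0, so that only E17.5 replicate 1 lay within the later range (-2.97 ± 1.72, adjusted p = 0.409).

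Cholesterol synthesis genes had lower later means in 8 of 9 tested members, with a median of -1.70. Insig1, which restrains that pathway, was the exception, at 109.8, 258.8, 14.4 and 126.3 FPKM and then at 251.2, 213.4, 591.0 and 1115 (2.33 ± 1.17, adjusted p = 0.322). The medians over tested genes were -2.14 for 4 endothelial, pericyte and meningeal genes, -1.91 for 3 erythrocyte genes, 0.10 for 4 genes of glycolysis, 0.49 for 3 immediate early genes, 0.46 for 5 nuclear and long noncoding RNAs and 0.72 for 2 lens genes. The choroid plexus list and the photoreceptor list each had 1 tested gene, Ttr (-2.23) and Opn1sw (0.52), and the myelin list had Cnp (2.26), none of them called. No mitochondrially encoded gene is listed in the files used here.

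**Figure D4:**
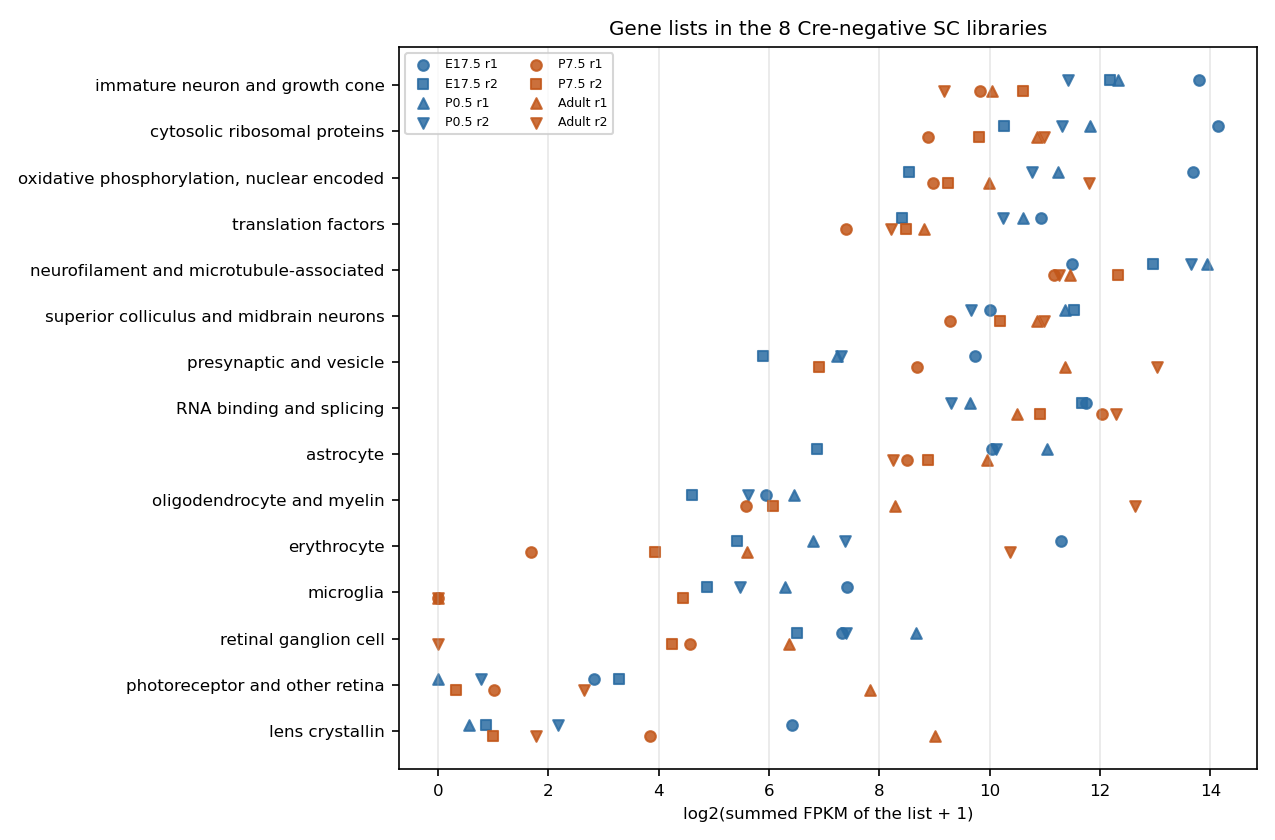
Summed FPKM of 15 gene lists, as log2(sum + 1), in each of the 8 Cre-negative libraries, perinatal in blue and later in orange, with a symbol for each stage and replicate. The sums for immature neurons and growth cones, for microglia and for retinal ganglion cells do not overlap between the periods. The photoreceptor and lens sums are highest in Adult replicate 1.

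Gene length and base composition moved with the difference. Genes lower later at an unadjusted p of 0.05 had a median transcript length of 1473 bases and a median GC content of 53.8%, those higher later 1792 bases and 48.3%, and all tested genes 2056 bases and 51.3%. Across 2245 genes, Spearman's rho of the difference was 0.13 with transcript length and -0.19 with GC content. The 200 most abundant genes of E17.5 replicate 1 had a median length of 1186 bases, those of the P0.5 replicates 1796 and 1803, and those of E17.5 replicate 2 and the later libraries between 2162 and 2479. The part of length, GC content and depth in the differences was not tested.

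No gene passed the test between the stages of a period. Between P0.5 and E17.5, 0 of 2260 genes passed (0%), with 168 above and 244 below at an unadjusted p of 0.05 by limma, and the smallest adjusted p was 0.159. Between Adult and P7.5, 0 genes passed (0%), with 44 higher and 89 lower at the unadjusted p and a smallest adjusted p of 0.782. The Snap25 difference was -6.48 ± 1.80 from E17.5 to P0.5 and 5.50 ± 1.80 from P7.5 to Adult, and neither passed (adjusted p = 0.159 and 0.782).

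The same comparison in the Cre-positive SC, which holds tagged ribosomes in addition to this background, gave 9 genes higher later (0.319%) and 79 lower (2.8%) of 2818 tested. With median-ratio scaling of the libraries these counts were 20 and 57. Without E17.5 Cre-positive replicate 2 they were 34 and 515, and without E17.5 Cre-positive replicate 1 or either P0.5 replicate at most 1 in each direction. The Cre-positive and Cre-negative comparisons share no library, but the mice were littermates and same-numbered libraries resembled each other, so the comparisons are not independent. Of the 5 genes called in the Cre-negative libraries, Pam, Impact and Gm1673 were also called in the Cre-positive ones, where they differed by 4.72 ± 1.06, 3.69 ± 0.71 and -6.11 ± 1.57 (adjusted p = 0.00417, 0.000589 and 0.0126). Snap25 differed there by 3.07 ± 1.13 (adjusted p = 0.0899), with 201.9, 15.1, 30.2 and 34.1 FPKM perinatally and 28.6, 152.0, 2682 and 1462 later. Of the 88 genes called in the Cre-positive libraries, 70 were tested in the Cre-negative ones, 67 with the same direction and 46 at an unadjusted p of at most 0.05. Across the 1822 genes tested in both, 1313 had the same sign and Pearson's r of the differences was 0.55, as a description over genes. Of the growth cone genes 11 of 26 tested were called lower in the Cre-positive libraries, and of the ribosomal protein genes 15 of 51, each with 0 called in the Cre-negative ones.

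**Figure D5:**
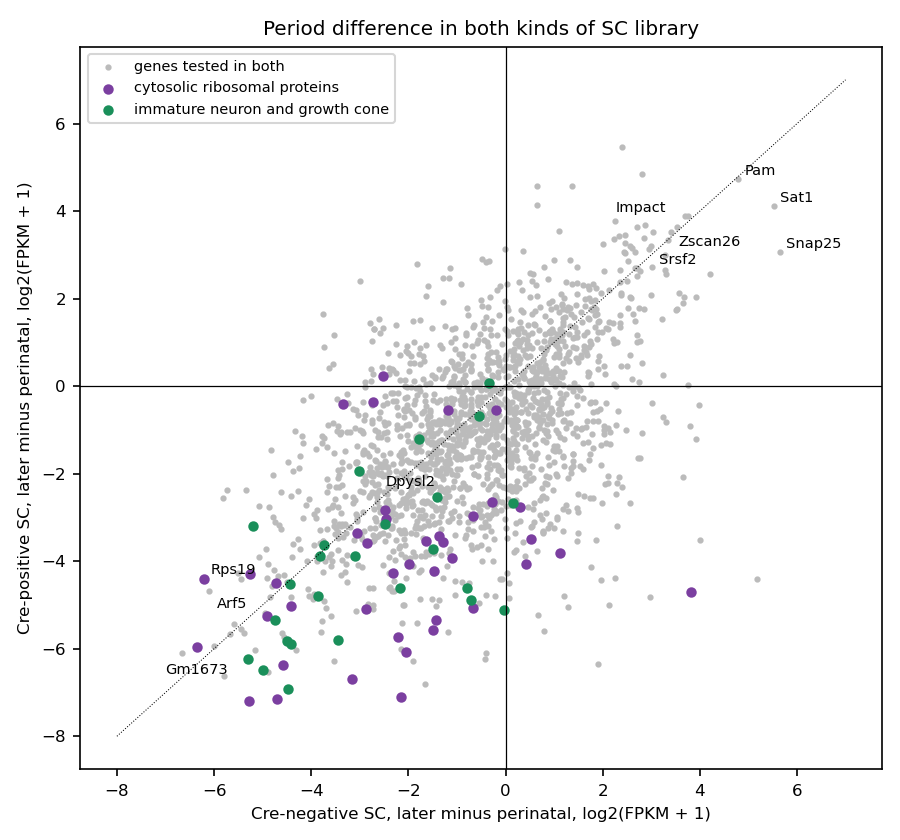
Later minus perinatal difference of mean log2(FPKM + 1) in Cre-positive against Cre-negative SC libraries, 1 point for each of 1822 genes tested in both, with a dotted line of equality. Pam, Impact and Gm1673 lie near that line, with differences of 4.79 and 4.72, 2.88 and 3.69, and -6.66 and -6.11.

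Whether the period difference itself depended on Cre was tested as an interaction over the 16 SC libraries. The fit treated them as independent and held no term for pairs of the same stage and replicate number. Such pairs resembled each other, so the counts hold for an unpaired fit only. By limma, 0 of 2260 genes passed (0%), with 55 genes more positive and 61 more negative in the Cre-negative libraries at an unadjusted p of 0.05. Without E17.5 Cre-negative replicate 2, 1 and 19 genes passed. The genes were those of the Cre-negative comparison, so a gene at 1 FPKM only in Cre-positive libraries could not enter. The smallest p belonged to Flywch2 (interaction -6.86 ± 1.64, adjusted p = 0.265), which met the filter only through the perinatal Cre-negative libraries. Flywch2 was listed at 0 in 7 of the 8 Cre-positive libraries and at 0.209 FPKM in P0.5 replicate 2, while all 4 perinatal Cre-negative libraries were at 22.8 FPKM or more. Of the 2263 genes at 1 FPKM in at least 3 Cre-negative libraries, 110 stayed below 1 FPKM in every Cre-positive SC library. The reverse count, of Cre-positive genes that stayed below 1 FPKM in every Cre-negative library, is not given here. Of the 387 genes at 1 FPKM in all 4 later Cre-negative libraries, 0 did so. Of the 759 genes at 1 FPKM in all 4 perinatal Cre-negative libraries, 3 did so. They were Flywch2, Maged2, a MAGE family gene, and Pcp4, which encodes a calmodulin-binding peptide, the latter 2 named after their values were seen. Maged2 was at 33.2, 1.36, 72.8 and 58.6 FPKM in the perinatal Cre-negative libraries and listed at 0 in all later ones and in all 8 Cre-positive ones.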

How the data were processed

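Gene-level FPKM were deposited by the authors for 24 libraries. The submitters' processing notes name TopHat2 2.0.12, Cufflinks 2.2.1, HTSeq 0.6.1p1 and mm10, and whether counting used strand is not given in the sources used here. The 4 run-off libraries were not analysed here. The 6 entries without an estimate were left out, which kept 3 genes out of the fit. Depth was estimated from the lowest FPKM steps of 4256 genes with 1 transcript, assuming an insert of 180 bases. Lengths, GC content and coordinates came from GENCODE M21, which matched 23603 of 23995 genes.

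Groups came from the labels. Genes at 1 FPKM or more in at least 3 of 8 libraries were compared as log2(FPKM + 1) by limma 3.58.1 (trend and robust moderation, statmod 1.5.0, R 4.3.3), two-sided, with Benjamini-Hochberg adjustment over all genes tested and a threshold of 0.05. A difference on this scale understates the change of low genes. The counts of the whole library were tested by an exact permutation test. Python 3.11.15, pandas 2.3.3 and scipy 1.17.1 were used for the rest, and the fit was tested on simulated data. The members and the 27 gene lists were chosen with earlier results of these data known. Named were up to 12 called genes with the smallest p in each direction (made up to 6 by uncalled genes), the 10 genes with the highest means, up to 3 called genes in each direction from each list (or its members with the highest means, up to 2) and Rpl22. Some genes that this rule names are not reported here. Alternatives were another pseudocount (0.1 or 5), another filter, scaling, weighting or moderation, stage groups, stage pairs, a replicate block and each library left out in turn. Replicate numbers did not pair stages, since the deviations of same-numbered libraries from their stage means correlated between -0.324 and 0.223.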

Additional observations from a re-analysis of the deposited data

Results flagged for a closer look

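In 26 of 100 sets of 4 libraries, the highest or lowest library lay farther from its nearest neighbour, relative to the range, than Dixon's 95% value allows. A rate of about 1 in 20 holds only for normally distributed values. Many of these sets are skewed sums of FPKM, and where all other libraries are at 0 the ratio is 1 whatever the value. Many values also come from the same libraries and are not independent, so the count is no measure of an excess.

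Among the perinatal libraries, E17.5 replicate 1 stood above the other 3 in genes at 10 FPKM or more (2389, next 1223) and in the summed FPKM of 8 lists. These were the choroid plexus (681.9, next 8.27), erythrocyte (2489, next 165.1), presynaptic (850.4, next 157.9), lens (84.6, next 3.49), oxidative phosphorylation (13118, next 2410), glycolysis (871.9, next 37.7) and ribosomal protein lists (18013, next 3592) and Rpl22 (7.84, others 0). E17.5 replicate 2 stood below the others for Arf5, at 0 against at least 7.94 on the log2(FPKM + 1) scale.

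Among the later libraries, Adult replicate 2 stood highest in summed FPKM of all genes (486464, next 218726). It did so for the myelin (6375, next 309.2), erythrocyte (1318, next 47.3), cell cycle (927.2, next 57.5), oxidative phosphorylation (3550, next 1013) and cholesterol lists (2481, next 825.0). On the log2(FPKM + 1) scale it was highest for Zscan26 (12.79, next 10.30) and Otub1 (14.76, next 11.27). Adult replicate 1 stood highest for the photoreceptor (227.3, next 5.25) and lens lists (515.2, next 13.2) and for Rpl22 (0.909, others 0). P7.5 replicate 2 was the only later library above 0 for Gm1673 (4.01 on the log2 scale) and for the microglia list (20.8 FPKM). P7.5 replicate 1 was the only one above 0 for Flywch2 (0.37), Rps19 (0.42) and Arf5 (0.47), all on the log2(FPKM + 1) scale.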

How the results depend on the processing

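The few calls between the periods depended on most settings. Genes called higher and lower in the Cre-negative libraries, 3 and 2 as reported, numbered 0 and 0 by limma with a pseudocount of 5 (46 and 225 at an unadjusted p of 0.05), without a filter (38 and 249), with 1 FPKM required in all 8 libraries (31 and 10 of 306 genes), with quantile normalization (103 and 153), with 4 stage groups (60 and 364), with neither trend nor robust moderation (37 and 292) and for E17.5 against Adult (21 and 21). They were 3 and 1 with median-ratio scaling, 166 and 470 with limma's array weights, 77 and 217 for P0.5 against P7.5, and 0 and 1 without both shallow libraries, the last chosen after the data were seen. Leaving out 1 library gave 0 to 4 and 0 to 108. In the Cre-positive libraries, 9 and 79 as reported, the counts were 20 with median-ratio scaling (higher), 0 and 0 without a filter, 5 and 48 with a pseudocount of 0.1, and 0 to 34 and 0 to 515 with 1 library left out. Genes without overlap numbered 27 to 65 (later above) and 129 to 405 (later below) with 1 library left out, the highest without E17.5 replicate 2, since fewer libraries need to be ordered. The interaction gave 0 to 1 and 0 to 19, and the stage contrasts 0 to 0. None of the 12 genes with the smallest p in their direction, 6 in each, changed sign under any alternative, though their adjusted p rose to between 0.569 and 0.796. They were picked by p in the same libraries that the alternatives reuse, so the stable sign is no independent check. The replicate block, for numbers that do not pair the stages, gave 0 and 0 (49 and 276 at the unadjusted p), and in the Cre-positive libraries 7 and 59. The causes were not tested. Estimated depth was lowest in E17.5 replicate 1 and Adult replicate 1, where values near 1 FPKM can rest on fewer than 3 fragments. Adult replicate 2 had the most tested genes listed at 0 (63.2%).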
